A study of Mus musculus with 6 samples.

Results

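The 10 genes described here code for subunits of ionotropic glutamate receptors, the channels that glutamate opens, and were chosen by name. They are the AMPA receptor subunits Gria1 to Gria4, the kainate receptor subunits Grik1 to Grik5, and Grin1, the subunit that every NMDA receptor contains. They make up 10 of the 54242 gene symbols in the deposited table. All 10 passed the filter on low values (average level over the libraries no lower than 1 TPM) and belonged to the 15097 genes tested. TPM gives the transcripts of a gene out of 1000000 in the library, corrected for transcript length, so levels can be compared between genes, but the sequencing depth behind a value is unknown. RNA came from lumbar dorsal root ganglia (L4-6), where the cell bodies of sensory neurons lie, of male C57bl/6 mice aged 8 to 10 weeks, with no transgene or deletion named for either group. The 3 control libraries came from mice with food ad libitum (called fed) and the other 3 from mice after 10 days of intermittent fasting (called fasted). The labels give a time of death of 24 hours but not the event it is counted from. In both groups the ganglia were dissociated with enzymes and neurons enriched on a BSA gradient. Whether each library holds 1 mouse or several pooled mice is not stated, and every p-value here reflects only how far these libraries varied, in part perhaps for technical reasons.

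Glutamate is the transmitter of primary sensory neurons, which release it in the spinal cord, and these neurons also carry glutamate receptors of their own. AMPA receptors are tetramers of Gria1 to Gria4 products, and the Gria2 subunit, once its RNA is edited, keeps calcium out of the channel. In kainate receptors the products of Grik1, Grik2 and Grik3 can form channels alone, while those of Grik4 and Grik5 need one of these as a partner. NMDA receptors join the Grin1 product with Grin2 or Grin3 products. Receptors of the kainate class that contain the Grik1 subunit are a known feature of small-diameter sensory neurons.

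All 12 neuron markers examined passed the filter, and their summed level ran from 20064 to 22206 TPM in fed and from 21884 to 23104 TPM in fasted libraries. Satellite glia markers (5380 to 6098 TPM over the 6 libraries) and Schwann cell markers (7150 to 8243 TPM) were also abundant, so the preparations were not neurons alone. Most of the satellite glia sum came from the single gene Apoe (4442 to 5097 TPM). Macrophage markers were lower in fasted libraries without overlap (summed level 66.3 to 81.0 against 42.0 to 53.9 TPM, all 7 genes lower). Endothelial markers were too, but by a narrow gap (59.6 to 69.4 against 50.7 to 59.2 TPM, all 4 genes lower on average). Erythroid markers were higher without overlap (1284 to 1564 against 1715 to 3277 TPM, all 5 genes higher). Skeletal muscle markers stood at 2433 TPM in fed replicate 2, against 46.4 to 243.8 TPM in the other libraries, and the geometric mean of the neuron markers was lowest there (890.3 TPM against 962.6 to 1016 TPM). Mitochondrially encoded genes held 5.71% to 8.995% of the TPM in fed and 4.83% to 5.24% in fasted libraries. The part of these cell types in the results on the receptor genes was not tested, and in such bulk samples fewer cells of a type and less RNA per cell cannot be told apart.

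Alternative splicing gives the subunits different properties, and the exons concerned are shown here because the isoform results below turn on them. Each AMPA receptor gene carries a pair of exons of 115 bases, known as flop (the upstream one) and flip, of which a mature transcript includes one. The choice alters part of the ligand-binding domain and with it how fast the channel desensitizes. The Gria2 pair lies at chr3:80691320-80691434 (flop) and chr3:80690404-80690518 (flip), both on the minus strand of GRCm38, and the Gria3 pair at chrX:41654810-41654924 (flop) and chrX:41669501-41669615 (flip), on the plus strand. All are coding exons and are written from the GENCODE M21 transcripts, 5′ to 3′, with capitals where the flip and flop exon of the same gene differ.
Gria2 flop: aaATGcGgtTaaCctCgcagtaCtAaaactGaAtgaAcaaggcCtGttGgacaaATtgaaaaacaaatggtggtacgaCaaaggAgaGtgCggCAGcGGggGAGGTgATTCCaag
Gria2 flip: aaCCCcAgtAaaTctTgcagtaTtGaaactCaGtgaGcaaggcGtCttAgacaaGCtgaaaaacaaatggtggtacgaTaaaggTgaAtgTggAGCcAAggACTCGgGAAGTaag
Gria3 flop: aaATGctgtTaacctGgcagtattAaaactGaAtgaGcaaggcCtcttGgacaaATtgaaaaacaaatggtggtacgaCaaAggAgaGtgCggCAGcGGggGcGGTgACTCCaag
Gria3 flip: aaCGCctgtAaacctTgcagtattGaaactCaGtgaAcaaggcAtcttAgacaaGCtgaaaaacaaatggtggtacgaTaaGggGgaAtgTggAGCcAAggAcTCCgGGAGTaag
The exons of 1 gene differed from each other at 31 to 36 of 115 positions in the 4 AMPA receptor genes. Flop exons of different genes, or flip exons of different genes, differed at only 6 to 14. At 16 positions all 4 flop exons had 1 base and all 4 flip exons another, and 69 positions were identical in all 8 exons. The exon type was thus more alike across genes than the pair within a gene.

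Grik1 has a cassette exon of 45 bases in the part of the gene for the extracellular domain (chr16:87955289-87955333, minus strand) and one of 87 bases near the end of the coding sequence (chr16:87896809-87896895). Grin1 has the N1 cassette of 63 bases (chr2:25311343-25311405, minus strand), which lies in the extracellular amino-terminal domain and affects the response to protons and polyamines, and the C1 cassette of 111 bases (chr2:25294438-25294548), which lies in the intracellular tail. All lengths are multiples of 3 bases. Capitals mark the cassette, and lower case marks the 12 coding bases on each side.
Grik1 shorter cassette: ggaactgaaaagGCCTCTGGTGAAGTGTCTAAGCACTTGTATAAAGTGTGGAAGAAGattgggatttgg
Grik1 longer cassette: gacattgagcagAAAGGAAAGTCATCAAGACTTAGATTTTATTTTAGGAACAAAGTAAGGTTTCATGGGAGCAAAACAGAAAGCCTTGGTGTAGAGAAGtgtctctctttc
Grin1 N1 cassette: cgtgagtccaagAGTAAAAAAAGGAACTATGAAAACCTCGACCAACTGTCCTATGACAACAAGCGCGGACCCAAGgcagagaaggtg
Grin1 C1 cassette: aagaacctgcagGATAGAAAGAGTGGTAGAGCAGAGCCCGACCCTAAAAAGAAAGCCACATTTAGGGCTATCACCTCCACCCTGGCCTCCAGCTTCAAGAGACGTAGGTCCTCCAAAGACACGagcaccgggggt

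The kainate receptor gene Grik1 had the highest level of the 10 genes in every library. In order of their means over the 6 libraries it was followed by Grin1, Gria4, Grik5, Grik4, Gria3, Gria2, Gria1, Grik2 and Grik3. The ranges of Grin1 and Gria4 overlapped, as did those of Grik5 and Grik4, of Gria3 and Gria2, of Gria1 and Grik2, and of Grik2 and Grik3. Within libraries, Grin1 was above Gria4 and Grik5 above Grik4 in 6 of 6, Grik2 above Grik3 in 5, Gria1 above Grik2 in 4 and Gria3 above Gria2 in 2. The ranges of the other neighbours in the order stood apart. Grik1 lay above 92.4% of the 15097 tested genes by mean level, Grin1 above 81.8%, and Grik3, the lowest member on this count, above 30.6%. The 5 kainate receptor genes together held 57.4% to 61.5% of the summed TPM of the 10 members, the 4 AMPA receptor genes 21.0% to 23.9%, and Grin1 16.3% to 18.8%. This order and these shares count all transcripts of a gene, and both change with full-length coding transcripts only, as given below.

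**Figure D1:**
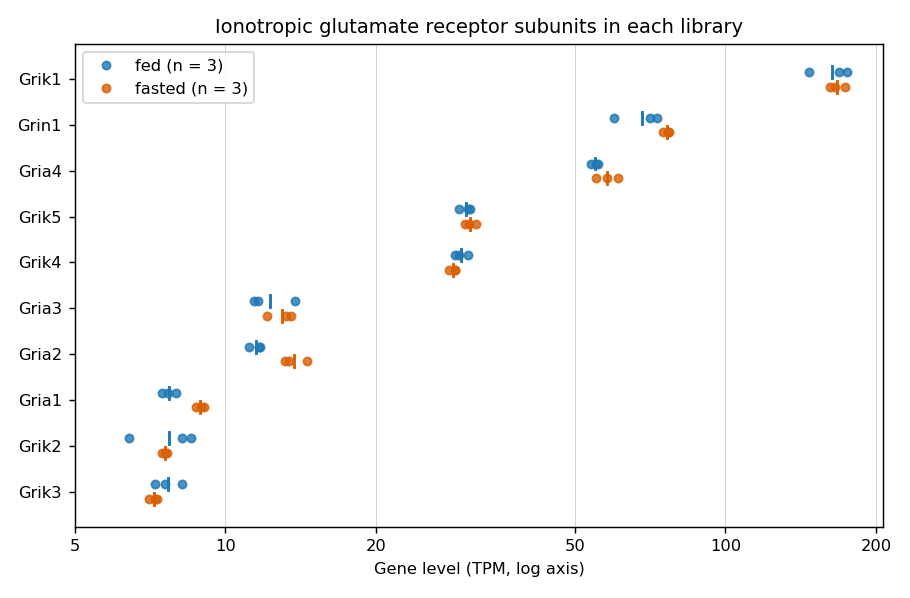
Level of each receptor subunit gene in TPM (log axis) in the 3 fed (blue) and 3 fasted (orange) libraries, with 1 point per library and a vertical tick at each group's mean. Grik1 lies far to the right of all other members, and the fed and fasted points are apart for Grin1, Gria2 and Gria1.

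The diets were compared next. Of the 10 genes, 0 passed an adjusted p of 0.05 (limma, Benjamini-Hochberg adjustment over the 15097 genes, smallest adjusted p = 0.42 for Gria2), where 0.00662% of all tested genes did. At an unadjusted p under 0.05 there were 2, Gria1 and Gria2, both higher in fasted libraries, where 6.72% of all genes were higher and 3.22% lower at that level. Fed and fasted values did not overlap for 3 of the 10, Gria1, Gria2 and Grin1, all higher in fasted libraries. Among all tested genes 12.7% were higher and 5.07% lower without overlap. The median log2 fold change of the 10 members was 0.054, against 0.031 for all tested genes, and 7 of 10 members were above 0, as were 9438 of all 15097 genes. These directions depended on the scaling. After scaling each library to its neuron markers, 4 of 10 members were above 0, as were 4694 of all genes. The 1015 genes higher and 486 lower at an unadjusted p under 0.05 became 181 and 1055 with that scaling (limma), 623 and 691 with median-of-ratios scaling, 641 and 650 with TMM-type scaling, and 556 and 748 without mitochondrial genes.

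The AMPA receptor genes Gria2 and Gria1 had the largest log2 fold changes of the 10 members. Gria2, whose product sets the calcium permeability of the receptor, was at 11.7, 11.7 and 11.1 TPM in fed replicates 1 to 3 and at 13.4, 13.2 and 14.6 TPM after fasting. Every fasted library was above every fed one, and the group means were 11.5 ± 0.323 and 13.7 ± 0.742 TPM (SD, n = 3 each). The log2 fold change, on the log2(TPM + 1) scale, was 0.24 with a 95% interval of 0.092 to 0.38 (limma, unadjusted p = 0.0057, adjusted p = 0.42). Gria1 was at 7.46, 7.98 and 7.68 TPM in fed and at 8.72, 9.08 and 8.93 TPM in fasted libraries. Its groups did not overlap either, and the fasted mean was 1.16 times the fed mean (log2 fold change 0.19, 95% interval 0.040 to 0.33, limma, adjusted p = 0.48).

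Gria3 (X chromosome, 41400854 to 41678601) was at 11.4, 11.6 and 13.8 TPM in fed and at 13.6, 12.1 and 13.2 TPM in fasted libraries. The highest value was thus in fed replicate 3, and the groups overlapped (log2 fold change 0.076, 95% interval -0.12 to 0.27, limma, adjusted p = 0.74). With 1 library left out its log2 fold change ran from 0.029 (without fed replicate 1) to 0.16 (without fed replicate 3). Gria4 (chromosome 9, 4417896 to 4796234), the most abundant AMPA receptor gene here, was at 55.1, 55.7 and 54.0 TPM in fed and at 57.9, 55.1 and 60.9 TPM in fasted libraries. Fasted replicate 2 lay within the fed range, and the difference was small (log2 fold change 0.076, 95% interval -0.032 to 0.19, limma, adjusted p = 0.55), at 0.041 without fasted replicate 3. All 4 AMPA receptor genes were on average higher in fasted libraries as deposited (3 of 4 after scaling to the neuron markers), and the median of their log2 fold changes was 0.13. Their summed level was 85.6, 87.0 and 86.6 TPM in fed against 93.6, 89.5 and 97.7 TPM in fasted libraries.

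These differences were smaller when levels were set against the neuron markers, which were also on average higher in fasted libraries (12 of 12, median log2 fold change 0.077). Per 100 TPM of the geometric mean of the neuron markers, Gria2 was at 1.18, 1.32 and 1.16 in fed and at 1.32, 1.35 and 1.43 in fasted libraries, still apart but narrowly. On the same scale Gria1 overlapped, at 0.75, 0.90 and 0.80 against 0.86, 0.93 and 0.88. After scaling to the neuron markers the log2 fold changes were 0.16 for Gria2, 0.12 for Gria1, 0.00087 for Gria3 and -0.0028 for Gria4, so the direction of Gria4 reversed. On that scaling all 5 kainate receptor genes were below 0, as were 10403 of the 15097 tested genes. How many of all genes were apart per 100 TPM of the neuron markers was not computed.

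**Figure D2:**
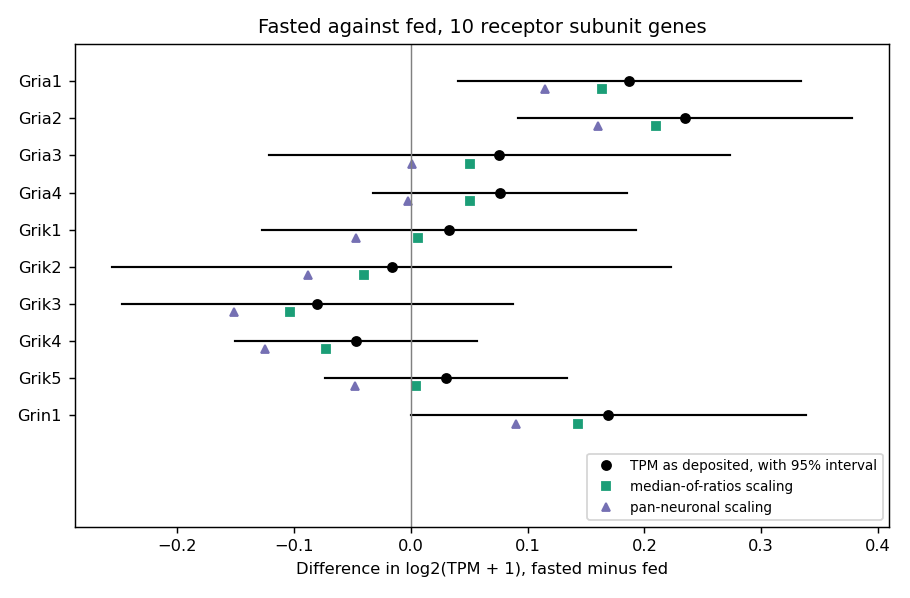
Difference in log2(TPM + 1) between fasted and fed libraries for each gene, as a black point with its 95% interval (limma, 3 libraries per group), with the same difference after median-of-ratios scaling (square) and after scaling to the neuron markers (triangle). The intervals of Gria1 and Gria2 lie above 0 before adjustment for multiple testing. The triangles lie to the left of the points for all 10 genes. This follows from the scaling, which divides every gene of a library by the same factor, on average larger in fasted libraries.

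The genes of the AMPA receptors also differed in abundance among themselves. Gria4 held 61.6% to 64.3% of the summed AMPA receptor TPM, Gria3 13.3% to 15.9%, Gria2 12.9% to 14.9% and Gria1 8.71% to 10.1%. Gria4 was 4.18 to 4.84 times as abundant as Gria2. The share of Gria2 was 13.6%, 13.5% and 12.9% in fed and 14.3%, 14.7% and 14.9% in fasted libraries, with no overlap. Most Gria4 RNA, however, was assigned to a transcript that does not code for a full subunit. Gria4-203 has 11 exons and a coding sequence of 1299 bases, against 2706 in the full-length Gria4 transcripts, and ends in an exon of its own at chr9:4478263-4478852, before the exons of the membrane-spanning part. It held 61.1%, 61.4% and 61.6% of Gria4 TPM in fed and 60.3%, 61.4% and 59.5% in fasted libraries. This share thus hardly varied, and its groups overlapped. The last exon of Gria4-203 is annotated with 590 bases, but those of the full-length transcripts with 2418 or 2421. Reads from the untranslated end therefore weigh on this share, and truncation itself was not measured.

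Counting only full-length coding transcripts, Gria4 was at 21.5, 21.5 and 20.7 TPM in fed and at 22.98, 21.2 and 24.7 TPM in fasted libraries. It still led the AMPA receptor genes, with 43.2% to 48.2% of their TPM counted this way. Gria2 then held 18.6% to 23.4%, and its groups overlapped. On this count its level was 9.65, 10.4 and 8.37 TPM in fed libraries, against 10.56, 11.5 and 11.97 TPM after fasting, so fed replicate 2 and fasted replicate 1 were all but equal. Retained-intron transcripts held 33.9% to 40.4% of Gria3 TPM and 10.9% to 24.2% of Gria2 TPM, and 0 of Gria1 or Gria4 transcripts were of that type. In full-length coding transcripts, the means over all libraries were 8.21, 10.4, 7.31 and 22.1 TPM for Gria1 to Gria4. Grin1 was at 71.4 TPM on this count, above the AMPA receptor genes together, unlike in the shares of all transcripts. The mean of Gria4 was then also below those of Grik4 (29.0 TPM) and Grik5 (25.0 TPM). Grik4 was above Grik5 in every library on this count (28.0 to 30.6 against 23.5 to 26.2 TPM). Grik2 became the lowest member by mean, below Grik3 in every library (5.30 to 6.00 against 7.04 to 8.21 TPM).

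Flip and flop transcripts held different shares of TPM in the 4 genes. The flop exon was in 60.2%, 64.9% and 64.6% of the spanning Gria1 TPM in fed and in 60.2%, 61.9% and 61.7% in fasted libraries. For Gria2 the flop share was 43.6%, 37.8% and 51.1% in fed and 42.1%, 42.8% and 41.2% in fasted libraries, and for Gria4 it was 57.9%, 50.5% and 61.9% against 54.4%, 54.1% and 49.2%. Gria3 stood apart from the other 3, with flop shares of 0% to 8.33% over the 6 libraries. Most of its full-length RNA was thus assigned to Gria3-201, which carries the flip exon printed above. The last exon of Gria3-201 is annotated with 2262 bases, but that of the flop transcripts Gria3-202 and Gria3-209 with 246. Reads from the untranslated end therefore weigh on this share, and the use of the flip exon itself was not measured. A further Gria3 transcript, Gria3-206, annotated as a target of nonsense-mediated decay, includes the flop exon where Gria3-201 skips it. It is not counted in the flop shares above, and its last exon has 2259 bases. It held 16.8%, 9.80% and 0% of the TPM of these 2 transcripts in fed and 0%, 8.00% and 17.3% in fasted libraries. In no AMPA receptor gene were the flop shares of fed and fasted libraries apart. The flop and flip transcripts of Gria2 also differ in the annotated length of their last exon (7265 bases for Gria2-201, 920 for Gria2-202), so reads from the untranslated end weigh on this estimate. Gria4-201 and Gria4-204 share 1 coding sequence, and Gria4-201 was listed at 0 in 3 libraries, while the sum of both ran only from 10.9 to 12.8 TPM.

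**Figure D3:**
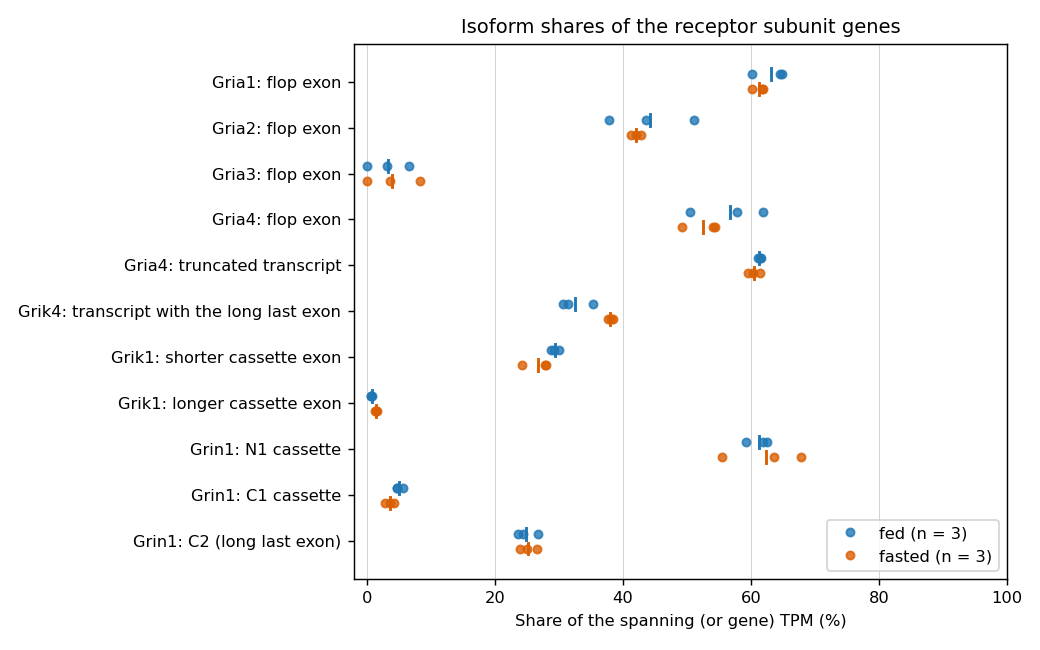
Shares of isoforms in percent for each of 3 fed (blue) and 3 fasted (orange) libraries, with a tick at each group's mean. Exon shares are percentages of the TPM of transcripts that span the exon, and the truncated Gria4 and long Grik4 transcripts are percentages of their gene's TPM. Gria3 has flop shares of at most 8.33% among its full-length transcripts, and the groups are apart for the Grik4 transcript, both Grik1 cassettes and the Grin1 C1 cassette. The exon shares were not tested, and how many were apart over all genes was not computed.

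In TPM as deposited, fed and fasted values overlapped for all 5 kainate receptor genes. Grik1 (chromosome 16, 87895900 to 88290265) was at 175.3, 146.7 and 168.7 TPM in fed and at 165.5, 173.8 and 161.6 TPM in fasted libraries. Its lowest value was in fed replicate 2, the library with the most muscle RNA and the lowest neuron markers. The groups overlapped (log2 fold change 0.033, 95% interval -0.13 to 0.19, limma, adjusted p = 0.87), and without fed replicate 2 the log2 fold change was -0.043. Scaling to the neuron markers gave -0.047.

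Grik2 and Grik3, which like Grik1 can form channels without other kainate subunits, were among the lowest members. Grik2 was at 6.43, 8.18 and 8.53 TPM in fed and at 7.66, 7.57 and 7.47 TPM in fasted libraries. The fasted values lay inside the wider fed range (log2 fold change -0.017, 95% interval -0.26 to 0.22). The direction reversed without fed replicate 2 or 3. Retained-intron transcripts held 1.65%, 24.7% and 1.77% of Grik2 TPM in fed libraries and 12.2% to 13.3% in fasted ones. In full-length coding transcripts Grik2 was at 5.30, 5.38 and 5.37 TPM in fed and at 6.00, 5.33 and 5.82 TPM in fasted libraries. The groups overlapped, but the fasted mean was then the higher (5.72 against 5.35 TPM). Grik3 was at 7.22, 7.57 and 8.21 TPM against 7.04, 7.22 and 7.31 TPM (log2 fold change -0.080, 95% interval -0.25 to 0.087, and -0.036 without fed replicate 3). Grik1 was 17.9 to 27.2 times as abundant as Grik2.

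The partner subunits Grik4 and Grik5 were near each other in level and varied least of all members, with coefficients of variation over the 6 libraries of 2.95% and 2.62%. Grik5 was at 30.9, 29.3 and 30.5 TPM in fed and at 30.7, 31.7 and 30.2 TPM in fasted libraries (log2 fold change 0.030, 95% interval -0.074 to 0.13, and 0.0089 without fed replicate 2). Its direction reversed after scaling to the neuron markers (-0.048) and without mitochondrial genes (-0.0016). Grik4 was at 30.6, 28.8 and 29.3 TPM against 28.8, 28.8 and 28.0 TPM (log2 fold change -0.047, 95% interval -0.15 to 0.056, and -0.023 without fed replicate 1). Against the neuron markers its groups were apart (log2 fold change -0.13, limma, unadjusted p = 0.046, adjusted p = 0.61), at 3.09, 3.23 and 3.04 per 100 TPM in fed and at 2.84, 2.96 and 2.76 in fasted libraries. With this scaling 1055 of the 15097 tested genes were lower at an unadjusted p under 0.05 (limma). The share of all genes apart against the neuron markers was not computed. Adjusted p for the 5 kainate receptor genes ran from 0.68 for Grik3 to 0.96 for Grik2 (limma). Grik1 alone held 66.5% to 70.0% of the summed kainate receptor TPM, Grik5 12.3% to 13.3%, Grik4 11.6% to 13.05%, and Grik2 and Grik3 between 2.57% and 3.71% each.

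Isoforms were compared for the 31 of 72 annotated member transcripts with a mean of at least 1 TPM, and for the 30 of these whose gene had at least 2 such transcripts, as shares of the gene. Of the 31 transcripts 0 passed (limma, smallest adjusted p = 0.65, 0.0271% of 33197 transcripts tested), and of the 30 shares 0 passed (limma on the arcsine square root of the share, smallest adjusted p = 0.88, 0.0489% of 26600 shares tested). At an unadjusted p under 0.05, 1 member transcript was higher and 1 lower, where 4.49% and 2.71% of all transcripts were. For shares it was also 1 in each direction, where 2.77% and 2.82% of all shares were. These 2 shares are those of Grik4-202 and Grik4-201, which make up the whole gene, so they are 1 result. The shares of 2 member transcripts (Grik4-202 and Grik1-202) were higher and of 2 (Grik4-201 and Grik1-211) lower without overlap, against 5.36% and 5.62% of all shares. Of the transcripts themselves 5 were higher and 2 lower without overlap, against 9.38% and 4.98% of all transcripts.

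The Grik4 gene (chromosome 9, 42518135 to 42944493) held the pair of shares with the smallest p. Its transcripts Grik4-202 and Grik4-201 share the same coding sequence and differ in their first exons and in the length of the last exon, 3051 bases in Grik4-202 and 774 in Grik4-201. Reads from the untranslated end therefore weigh on these shares, as for Gria2. Grik4-202 held 31.4%, 30.7% and 35.3% of the gene's TPM in fed and 38.1%, 37.6% and 38.4% in fasted libraries, and Grik4-201 the rest. All fasted libraries were above all fed ones (means 32.5% ± 2.47 and 38.1% ± 0.41, SD, n = 3 each, limma, unadjusted p = 0.022, adjusted p = 0.88). In TPM, Grik4-202 was at 9.61, 8.83 and 10.3 against 10.97, 10.8 and 10.8, and Grik4-201 at 21.0, 19.9 and 18.9 against 17.8, 18.0 and 17.2. Both transcripts were thus apart between the groups, in opposite directions, while their sum overlapped.

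For Grik1, transcripts with the 45-base cassette printed above made up 29.3%, 30.0% and 28.8% of the spanning TPM in fed and 27.8%, 28.0% and 24.3% in fasted libraries. The fasted values were all lower, with the lowest in fasted replicate 3, but the share of exons apart over all genes was not computed. The main carrier, Grik1-211, held 25.9% ± 0.66 of the gene in fed and 23.1% ± 2.53 in fasted libraries (SD, n = 3 each, limma, adjusted p = 0.91). The most abundant member transcript of all was Grik1-201, without either cassette, at 98.2 ± 10.2 TPM with food ad libitum and 103.9 ± 3.87 TPM after fasting.

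The 87-base cassette of Grik1 was rare, at 0.83%, 0.75% and 0.72% of spanning TPM in fed and 1.66%, 1.26% and 1.504% in fasted libraries. The transcript with it, Grik1-202, was at 1.25, 0.95 and 1.06 TPM against 2.38, 1.87 and 2.13 TPM. These are low values, and every fasted library was above every fed one (log2 fold change 0.58, 95% interval 0.19 to 0.98, limma, unadjusted p = 0.011, adjusted p = 0.65). Retained-intron transcripts held 11.8% to 14.2% of Grik1 TPM. Of Grik5, 10.4% to 17.1% was assigned to transcripts annotated as targets of nonsense-mediated decay, mainly Grik5-207, and the groups overlapped.

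Grin1 (chromosome 2, 25291181 to 25319187) was at 70.8, 60.0 and 73.1 TPM in fed and at 77.1, 75.1 and 76.6 TPM in fasted libraries. The groups did not overlap, and the fasted libraries lay within 2 TPM of each other while fed replicate 2 was far below the other fed libraries. The means were 68.0 ± 7.02 and 76.3 ± 1.02 TPM (SD, n = 3 each), with a log2 fold change of 0.17 and a 95% interval of -0.00012 to 0.34 (limma, adjusted p = 0.50). Without fed replicate 2, the library with the most muscle RNA, the log2 fold change was 0.083 (limma, adjusted p = 0.70). Per 100 TPM of the neuron markers, Grin1 was at 7.16, 6.74 and 7.59 in fed and at 7.61, 7.71 and 7.54 in fasted libraries, and the groups overlapped.

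The partners of Grin1 were at far lower levels. Of the 6 other NMDA receptor subunit genes 2 reached a mean of 1 TPM. Grin3a, which forms channels of low calcium permeability, was at 8.78, 8.38 and 9.38 TPM in fed and at 8.58, 9.94 and 9.99 TPM in fasted libraries, and Grin2d was at 1.64, 1.63 and 1.342 against 1.62, 1.68 and 1.32 TPM. Neither differed beyond its spread (limma, adjusted p = 0.67 and 1.00). Grin2a, Grin2b, Grin2c and Grin3b were between 0.0065 and 0.48 TPM in every library and were not tested. The 4 Grin2 genes together summed to 1.69 to 2.23 TPM, and Grin1 was 36.9 to 58.2 times as abundant as Grin2d and 7.15 to 8.99 times as abundant as Grin3a.

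**Figure D4:**
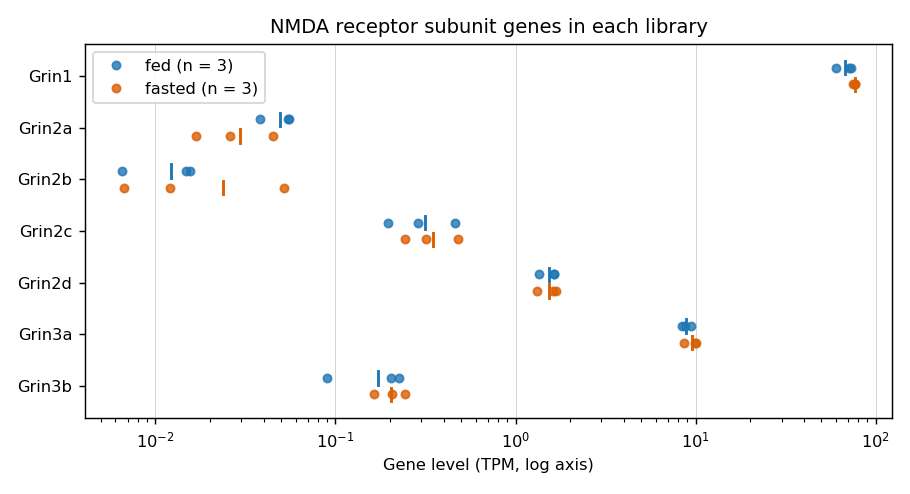
Level of the 7 NMDA receptor subunit genes in TPM (log axis) in each of 3 fed (blue) and 3 fasted (orange) libraries, with a tick at each group's mean. Grin1 lies at 60.0 to 77.1 TPM, Grin3a below 10 TPM, and the Grin2 genes below 2 TPM.

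Grin1 RNA was split over 5 transcripts with a mean of at least 1 TPM, which differ in the N1 and C1 cassettes printed above and in the acceptor of the last exon (a last exon of 1304 bases, which codes for the C2 tail, or of 948 bases, for the alternative tail). The N1 cassette was in 62.5%, 59.3% and 61.8% of spanning TPM in fed and in 63.7%, 55.6% and 67.9% in fasted libraries, so both forms were common and the fasted values enclosed the fed ones. The C2 tail was in 24.4%, 23.7% and 26.8% against 26.6%, 25.1% and 24.0%. The C1 cassette was rare in all 6 libraries, at 4.67%, 5.70% and 4.69% in fed and 2.84%, 4.32% and 3.69% in fasted libraries, without overlap. Its 2 carriers with values above 0, Grin1-204 and Grin1-208, overlapped between the groups when taken alone (limma on shares, adjusted p = 0.94 and 0.92). Here too the share of exons apart over all genes was not computed. All 3 transcripts that lack N1 other than Grin1-205 were listed at 0 in every library.

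The other genes of the glutamate receptor system were taken from 8 lists of 54 genes, of which 43 were tested and 0 passed (limma, smallest adjusted p = 0.48). Of the 43, 33 were higher and 10 lower after fasting (median log2 fold change 0.059, against 0.031 for all tested genes), but 16 were higher and 27 lower after scaling to the neuron markers. At an unadjusted p under 0.05, 5 were higher and 0 lower, where 6.72% of all genes were higher and 3.22% lower. Without overlap 9 were higher and 0 lower, on TPM, where 12.7% of all genes were higher and 5.07% lower.

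Auxiliary subunits of AMPA receptors had 11 of 12 genes tested, 9 of them higher, with a median of 0.061 (5 higher after scaling to the neuron markers, median -0.0026). The most abundant was Cacng7, a member of the transmembrane AMPA receptor regulatory protein family, with 96.8 ± 3.38 against 101.1 ± 4.20 TPM after fasting. Cacng8, of the same family, was at 2.61, 2.95 and 2.52 TPM in fed and at 3.56, 3.26 and 3.46 TPM in fasted libraries, without overlap (log2 fold change 0.26, limma, adjusted p = 0.49). Gsg1l, another auxiliary subunit, was at 3.88 ± 0.19 against 4.54 ± 0.28 TPM (adjusted p = 0.52, limma). The kainate receptor auxiliary subunits Neto1 (5.61 ± 0.16 against 5.50 ± 0.69 TPM) and Neto2 (16.6 ± 1.15 against 16.8 ± 0.23 TPM) overlapped between the groups.

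Of 13 assembly and scaffold genes, 10 were higher and 3 lower (median 0.073), but 5 and 8 after scaling to the neuron markers. Dlg2 and Dlg4, which code for postsynaptic scaffold proteins, had the smallest p. Dlg4 was at 113.6, 107.1 and 110.9 TPM in fed and at 118.3, 121.5 and 114.5 TPM in fasted libraries, without overlap, and Dlg2 was at 25.6, 23.1 and 27.1 against 28.1, 27.2 and 32.2 TPM, apart by a narrow gap (limma, adjusted p = 0.50 for both). Of the RNA editing enzymes, Adarb1, which edits the Gria2 transcript, was at 24.4 ± 0.57 against 23.6 ± 0.49 TPM and Adar at 33.0 ± 3.15 against 34.5 ± 2.18 TPM. Editing itself cannot be read from TPM.

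Among the 8 metabotropic glutamate receptor genes, which act through G proteins, 3 were tested, all higher on average in fasted libraries (2 of 3 after scaling to the neuron markers). Grm8, at 10.8 ± 0.774 against 12.5 ± 0.472 TPM, and Grm4, at 16.1 ± 0.801 against 17.8 ± 0.617 TPM (SD, n = 3 each), were both apart between the groups (log2 fold changes 0.19 and 0.14, limma, adjusted p = 0.48 and 0.50). Glutamate uptake and metabolism genes had 6 of 8 higher (median 0.042), but 2 of 8 after scaling to the neuron markers, with the vesicular transporter genes Slc17a6 (145 ± 8.37 against 155 ± 5.06 TPM) and Slc17a7 (195 ± 15.45 against 214 ± 13.04 TPM) at the smallest p (limma, adjusted p = 0.53 for both).

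Over the 6 libraries, the genes whose log2(TPM + 1) followed that of Grik1 most closely were Rpap1, Slc36a1 and the predicted gene Gm14808, with Pearson correlations of 0.997, 0.996 and 0.995. These correlations are over 6 libraries and the best of 15097 genes, and all share the same libraries. All 3 genes, like Grik1, were lowest in fed replicate 2. Rpap1 was there at 7.45 TPM against 7.95 to 8.39 TPM, and Slc36a1 at 151.3 against 164.0 to 177.0 TPM. Gm14808 was at 0.76 against 1.33 to 1.79 TPM, with a mean of 1.43 TPM, near the filter.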

How the data were processed

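Messenger RNA of 6 libraries (3 fed, 3 fasted) was measured after selection of polyadenylated RNA, per the labels' protocols. The values are TPM per transcript, deposited by the authors. Salmon 1.6.0, which estimates transcript abundance, is named per the submitters' processing notes, as are Trim Galore 0.6.6, DESeq2 1.34.0, FastQC 0.11.9 and the builds GRCm38 and mm10. The roles of the tools and the annotation release are not given in the sources used here. Each library sums to 1000000 TPM, which keep no depth, so no count test, counting interval or floor is given. Transcripts that share exons share reads, so isoform levels are estimates.

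TPM was summed over the transcripts of a symbol. Genes and transcripts with a mean of at least 1 TPM entered a group-only model on log2(TPM + 1) in limma 3.58.1 under R 4.3.3 (moderated variances with a trend on level, two-sided, Benjamini-Hochberg adjustment over all features tested, threshold 0.05). Fold changes on this scale understate the change of low genes. Isoform shares were compared with limma on the arcsine square root, without a trend, leaving out genes with 0 TPM in any library. Exon shares are sums over annotated transcripts that include or skip an exon. They were not tested. Of 11 such exon events in the members 3 were apart between the groups, and the share over all genes was not computed. Full-length means a coding sequence of at least 80% of the gene's longest. Structures and sequences came from GENCODE M21 (GRCm38), which holds all 72 member transcripts and 98.7% of all 140992. The fit was tested on simulated data. Same-numbered libraries deviated together only weakly and no label ties them, so no replicate block was used.

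Named genes are the 10 members and, of each other list, the 2 with the smallest p. The genes of 1 list are not reported here. Cacng7 and the genes below the filter were picked for mention with their values in view. The members and lists were chosen with earlier results of these data known. Alternatives were other pseudocounts (0.1, 0.5), filters, scalings, a replicate block and leaving out each library. Sums and plots were made in Python 3.11.15 with matplotlib 3.10.9.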

Additional observations from a re-analysis of the deposited data

How the results depend on the processing

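Under the 16 alternatives tried for each member gene, 0 of the 10 genes passed (limma, adjusted p from 0.38 to 1.00). Gria1, Gria2, Gria3 and Grin1 were higher and Grik3 and Grik4 lower in fasted libraries under all of them. Direction reversed after scaling to the neuron markers for Gria4 (-0.0028), Grik1 (-0.047) and Grik5 (-0.048), and without mitochondrial genes for Grik5 (-0.0016). With 1 library left out Grik1 ran from -0.043 (without fed replicate 2) to 0.085 and Grik2 from -0.13 to 0.052 (without fed replicate 3), with 0.025 without fed replicate 2. Gria3, Gria4, Grik3, Grik4, Grik5 and Grin1 kept their direction with 1 library left out, but each moved by over 1.5 times without at least 1 library. The count of genes that passed, 1 as reported, was 2 with a pseudocount of 0.1 or 0.5. It was 0 without a filter (limma, 1281 higher and 802 lower at an unadjusted p under 0.05) and 0 with protein-coding transcripts only, chosen after seeing the data (1029 and 458). With 1 library left out it ran from 1 to 6, with 3, 2 and 6 without fed replicates 1, 2 and 3 and 2 and 4 without fasted replicates 1 and 3. The count of transcripts that passed, 9, was 4 with a minimum of 5 TPM and 4 to 15 with 1 library left out (5 without fed replicate 1, 4 without fasted replicate 1, 15 without fasted replicate 2). The count of isoform shares, 13, was 3 with that minimum, 3 untransformed, and 2 to 21 with 1 library left out (2 without fed replicate 1, 21 without fasted replicate 2).

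With the replicate number as a block (limma), 0 transcripts passed (1514 higher and 895 lower at an unadjusted p under 0.05), 0 isoform shares passed (697 and 694), and 1 gene passed. Deviations of same-numbered libraries from their group means correlated at 0.066 to 0.114 across genes, those of other pairs at -0.124 to 0.039, and each library correlated best with its own number. This is a hint from the data, not the design. The block changed no call of a member. Since TPM hold no depth, the counting error of low values such as those of Grik1-202 is unknown.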
